A study of Rattus norvegicus with 10 samples.

Results

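The endoplasmic reticulum (ER) genes followed here are 32 chaperones, disulfide isomerases, stress sensors, degradation factors and translocation subunits, listed by gene name. Of the 32, 30 were measured, each through the brightest probe set annotated to that gene alone, among 14217 genes measured in the same way. Ern1, which encodes the sensor IRE1, and Derl3, a derlin of the degradation channel, have no probe set of their own in the annotation used here and were not analysed. Liver RNA came from female Harlan Sprague-Dawley rats given corn oil by gavage (5 arrays) or indole-3-carbinol (I3C) in corn oil at 300 mg per kg (5 arrays). Dosing went on for 13 weeks, 5 days each week, by the sample labels, while a longer study is named in the series' design. I3C is a compound released from cruciferous vegetables. No label ties an array to an animal, and a p-value therefore reflects only how far these samples spread, which may be technical.

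Secreted and membrane proteins enter the ER through the SEC61 channel and fold there with the help of chaperones, lectins and enzymes that form disulfide bonds. Proteins that fail to fold are drawn back through the membrane and destroyed by the proteasome. When unfolded proteins build up, the membrane sensors ATF6, IRE1 and PERK start the unfolded protein response, which raises the transcripts of many of these helpers. Hepatocytes secrete most plasma proteins and hold an extensive ER.

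Of the 30 measured genes 8 rose and 0 fell in the I3C livers. Dnajb9, Xbp1, Selenos, Ssr1, Eif2ak3, Derl1, Sil1 and Manf were the 8, with folds from 1.76 for Dnajb9 down to 1.22 for Manf. The abundant chaperones and isomerases, Hspa5, Hsp90b1, Calr, Canx, P4hb, Pdia3, Pdia4 and Pdia6, did not pass the test. Over all 14217 genes 6.43% were called, 3.32% higher and 3.11% lower. Because the genes and the lists below were chosen with earlier results of these data in view, these shares are a background for description only. The call is an adjusted p under 0.05 in limma, a linear model with moderated variances, two-sided, adjusted by Benjamini-Hochberg across 31042 probe sets. At an unadjusted p under 0.05, 15 of the 30 lay higher and 0 lower, where 9.62% and 10.2% of all genes did.

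The median log2 difference over the 30 genes, I3C minus vehicle, was 0.17, and over all genes it was -0.0039. In 25 of the 30 the difference was above 0. All 5 I3C arrays lay above all 5 vehicle arrays for 7 of the 30 genes, against 4.61% of all genes, and the reverse held for 0 of the 30, against 4.07%. Every difference was below 1 on the log2 scale, the widest being 0.82 for Dnajb9 and the lowest -0.18 for Syvn1. Without I3C 2 or without I3C 5 the number that rose was 5.

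**Figure D1:**
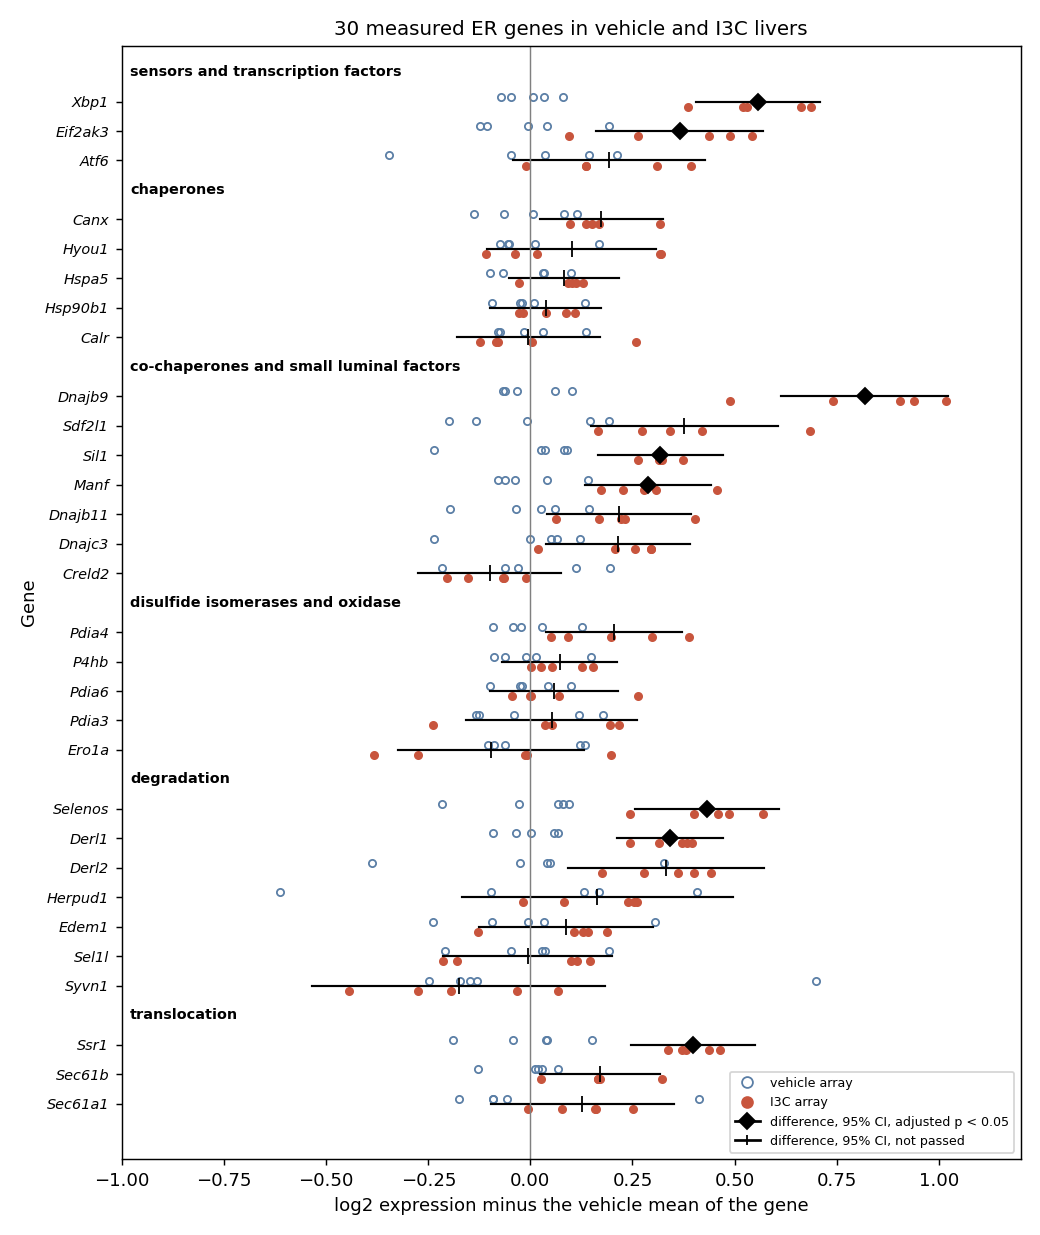
Log2 expression of the 30 measured ER genes on each array, relative to the vehicle mean of the gene (x axis), with 1 row per gene in 6 role groups. Open circles are vehicle arrays and filled circles I3C arrays; black marks are the difference with its 95% confidence interval, a diamond where the gene passed. The 8 diamonds lie in the sensors, co-chaperones, degradation and translocation groups, and the chaperone and isomerase rows hold none.

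Facts of the samples bear on these values. The GAPDH control, read at its 3' end minus its 5' end as a measure of RNA integrity and labelling, ran from 0.32 to 0.65 in vehicle arrays and from 0.16 to 0.29 in I3C arrays, with no overlap (exact permutation p = 0.00794, two-sided, the smallest that 5 against 5 can give, and 0.0159 adjusted over 2 measures). For beta-actin it ran from 1.45 to 1.74 and from 1.17 to 1.53 (exact permutation p = 0.0476, two-sided, 0.0476 adjusted). With the GAPDH difference as a covariate 2 of the 30 genes were called, Dnajb9 and Sec61a1, and 228 of all genes were. Because the GAPDH ranges of the groups did not overlap, this covariate and the dosing cannot be told apart here. Under it the 8 genes that rose kept from 45% (Sil1) to 113% (Manf) of their differences. The SE grew for each of them, for Xbp1 from 0.07 to 0.12. With the beta-actin difference 8 were called, of which 6 were among those named above, Eif2ak3 and Manf being lost. Of 10 measured macrophage markers 2 fell, C1qa and Cd5l, and the summed linear signal of the list ran from 10024 to 12637 in vehicle and from 7791 to 10335 in I3C arrays. In bulk liver, fewer cells of a type and less RNA per cell cannot be told apart. Beside the counts per marker list, 3.32% of all genes rose and 3.11% fell, and 0 of 6 is near those shares. None of 6 markers of plasma and B cells, cells known for a large ER, passed. Apart from Jchain, these markers had means between 3.91 and 6.16 in both groups, below the array medians of 6.21 to 6.29. The summed signal of the 6 ran from 283 to 357 in vehicle and from 326 to 404 in I3C arrays. Whether such cells differed in number was not tested. Of 7 hepatocyte markers Apoa1 rose (0.38 ± 0.07, SE) and 0 fell, with sums from 143201 to 147291 in vehicle and from 142727 to 149671 in I3C arrays. Of 13 pancreatic acinar markers, which mark another ER-rich cell, Cpa1 fell and 0 rose. Their summed signal ran from 2596 to 4434 in vehicle and from 1124 to 1790 in I3C arrays, and most of it in vehicle arrays was Cpa1, with log2 means of 11.54 and 9.44. The median difference of the list was 0.015, Cela1 differed by 0.49 ± 0.17 (SE) without passing, and the defining enzymes Prss1, Prss2, Ctrb1, Ctrc and Amy2a3 had means between 3.51 and 4.68 in both groups. Of 6 sinusoidal endothelial markers 0 passed, with sums from 4319 to 4872 and from 3834 to 4488. Of 8 stellate cell markers Rgs5 rose and Lrat fell, with sums from 3153 to 3940 and from 2793 to 3486. The part of RNA quality and of cell makeup in the ER results was not tested further.

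Among the sensors and their transcription factors 2 of 3 measured genes rose. Beside this and the counts per role below, 3.32% of all genes rose and 3.11% fell. With 3 to 7 measured genes per role, a count of 0 is near those shares. Xbp1 encodes the transcription factor whose messenger RNA is spliced by IRE1 and which drives many ER genes. Its vehicle arrays read 11.65, 11.78, 11.63, 11.70 and 11.73 on the log2 scale. Its I3C arrays read 12.36, 12.22, 12.23, 12.38 and 12.08. The lowest I3C array lay above the highest vehicle array. The means were 11.70 ± 0.06 (SD, n = 5) and 12.26 ± 0.12 (SD, n = 5), a difference of 0.56 ± 0.07 (SE, limma adjusted p = 0.000549), which is 1.47-fold. Under the GAPDH covariate Xbp1 differed by 0.52 ± 0.12 (SE) and the call ended (limma adjusted p = 0.0613). The array value does not tell the spliced from the unspliced form.

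Eif2ak3 encodes PERK, the sensor kinase that phosphorylates the initiation factor eIF2 alpha. In the vehicle group it read 7.79, 7.74, 7.64, 7.94 and 7.63, and its I3C arrays 7.84, 8.24, 8.29, 8.01 and 8.19. The groups overlapped, since I3C 1 lay below vehicle 4. The difference was 0.37 ± 0.09 (SE, limma adjusted p = 0.045), 1.29-fold, close to the threshold. The call ended when vehicle 1, vehicle 2, vehicle 3, vehicle 5, I3C 2, I3C 3, I3C 4 or I3C 5 was left out, with differences from 0.32 to 0.39 and limma adjusted p from 0.0625 to 0.116. It also ended with the variance prior allowed to follow the level (limma adjusted p = 0.0517), with the GAPDH covariate (0.36, limma adjusted p = 0.322) and with the beta-actin covariate (0.47, limma adjusted p = 0.0614).

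Atf6 encodes the sensor that is cut in the Golgi to release a transcription factor. Vehicle arrays gave 10.16, 10.08, 10.34, 10.27 and 9.78, and its I3C arrays 10.44, 10.52, 10.27, 10.12 and 10.26. The groups overlapped, and vehicle 5 was the lowest of all 10. The difference of 0.19 ± 0.11 (SE) did not pass (limma adjusted p = 0.441), with a 95% interval from -0.04 to 0.43. With the beta-actin difference as a covariate Atf6 was called higher (0.44 ± 0.09, SE, limma adjusted p = 0.0328), and with the GAPDH difference it lay at 0.04 ± 0.18 (SE).

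Of the 5 chaperones 0 passed. Hspa5 encodes BiP, the HSP70 of the ER lumen, whose transcript is a widely used readout of the unfolded protein response. The 5 vehicle values were 13.28, 13.11, 13.21, 13.21 and 13.08, and its I3C arrays 13.15, 13.30, 13.29, 13.27 and 13.28. The I3C arrays other than I3C 1 lay close together. I3C 2, I3C 3 and I3C 5 lay slightly above vehicle 1, the highest vehicle array, and I3C 4 slightly below it. The difference was 0.08 ± 0.06 (SE, limma adjusted p = 0.62), and its 95% interval ran from 0.96-fold to 1.16-fold. Hsp90b1 encodes GRP94, the HSP90 of the lumen. On vehicle arrays the level was 12.54, 12.47, 12.54, 12.57 and 12.70, and its I3C arrays 12.65, 12.54, 12.55, 12.60 and 12.68. The I3C range lay inside the vehicle range, the difference was 0.04 ± 0.06 (SE, limma adjusted p = 0.865), and the interval ran from 0.93-fold to 1.13-fold.

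Calr and Canx encode calreticulin and calnexin, the lectins that hold glycoproteins during folding. Calr differed by -0.0048 ± 0.08 (SE), with an interval from 0.88-fold to 1.13-fold. Canx differed by 0.17 ± 0.07 (SE, limma adjusted p = 0.219). Its further probe sets disagreed in sign, at -0.04 and 0.26, and neither passed. Hyou1, a large HSP70-like chaperone that exchanges the nucleotide of BiP, differed by 0.10 ± 0.10 (SE). It differed by -0.07 with the beta-actin difference as a covariate and by 0.15 with the GAPDH difference. The further, dimmer probe set of Hyou1 differed by 0.30 ± 0.12 (SE, limma adjusted p = 0.242).

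**Figure D2:**
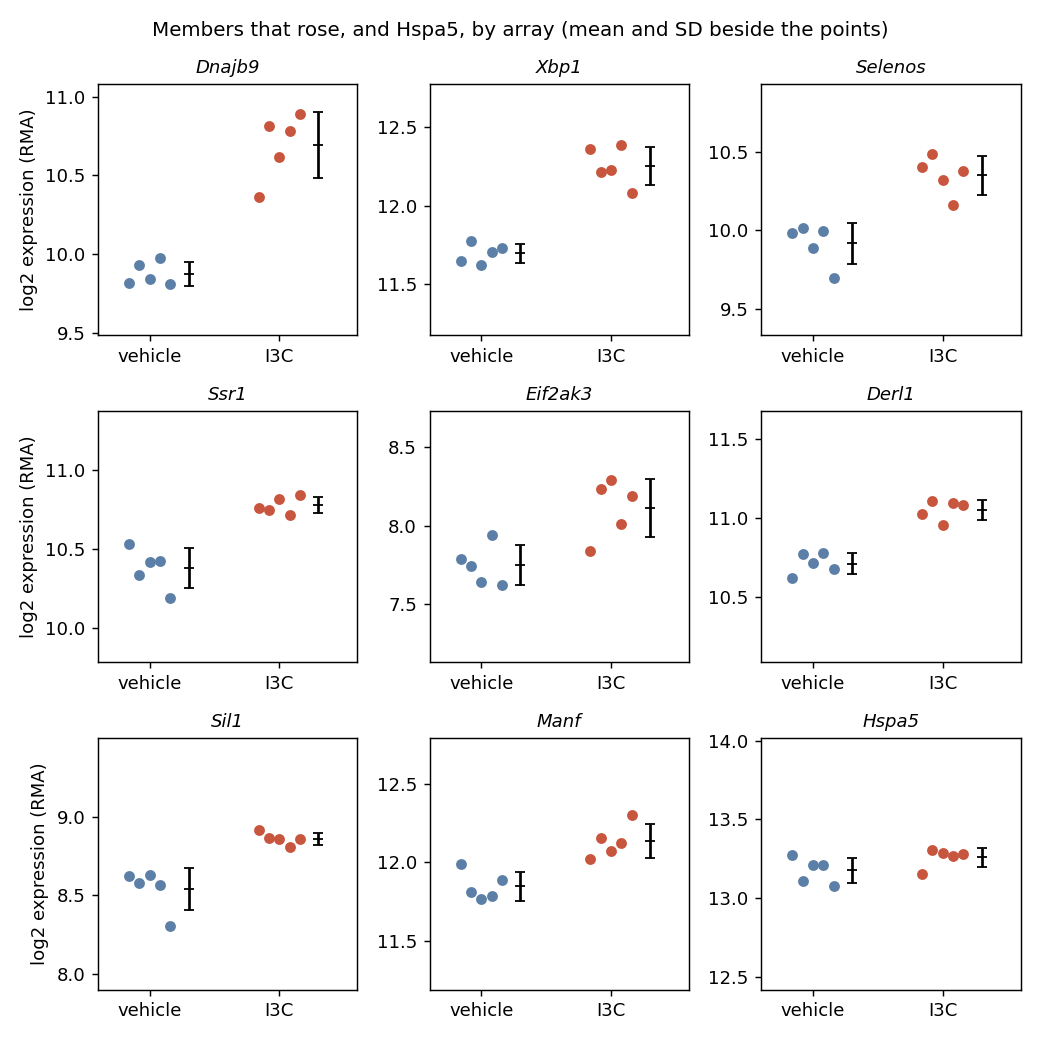
Log2 expression (y axis, authors' RMA values) of the 8 genes that rose and of Hspa5, by group (x axis). Points are arrays and the bars beside them the mean and SD of 5 arrays; every panel spans the same height. For 7 of the 8 genes the groups do not overlap, Eif2ak3 being the exception, and for Hspa5 they do.

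The promoters of some of these genes carry a well-known motif. The ER stress response element (ERSE, CCAAT and CCACG with 9 free bases between) and the shorter ERSE-II (ATTGG and CCACG with 1 free base between) are known from other mammals as sites through which ATF6 and XBP1 act with NF-Y. Both were searched on either strand in RefSeq windows of assembly GRCr8, 250 bases before to 50 after each start site. Windows were given for 24 of the 32 genes, and those of Atf6, Derl1, Ern1, Ero1a, Manf, Pdia3, Pdia6 and Sec61a1 were not. An ERSE stood in the windows of 8 of the 24 genes and an ERSE-II in those of 3 more. Among all 33469 windows 0.0657% held an ERSE and 0.0508% an ERSE-II. The ERSE sites are shown because they mark which of the genes share the element; capitals are the fixed letters of the motif, each read on the strand where it matches.
Hspa5: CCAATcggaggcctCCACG
Xbp1: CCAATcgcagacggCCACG
Hsp90b1, farther site: CCAATcgaaaggagCCACG
Hsp90b1, nearer site: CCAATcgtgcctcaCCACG
Canx: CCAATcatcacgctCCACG
Calr: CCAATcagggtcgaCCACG
Creld2: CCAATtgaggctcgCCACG
Dnajc3: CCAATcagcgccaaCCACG
Derl3: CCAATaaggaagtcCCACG

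The ERSE of Hspa5 began 43 bases and that of Xbp1 65 bases before the start site. The farther and the nearer site of Hsp90b1 began 176 and 72 bases before it. Its nearer site, like those of Calr, Creld2 and Derl3, matched on the strand opposite to the gene. The ERSE-II of Herpud1 (ATTGGgCCACG), of Dnajb11 (ATTGGcCCACG) and the pair of Hyou1 (ATTGGcCCACG and ATTGGgCCACG) differ only at the free base. The farther ERSE-II of Hyou1 overlaps a match to UPRE (TGACGTGG), a site known for XBP1. In Hsp90b1, Canx, Calr and Dnajb11 the element overlaps a match to the short core GCGTG.

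Whole windows are shown for Hspa5, the standard readout, and for Xbp1, which rose and holds an ERSE, with the fixed letters of the ERSE in capitals. The window of Xbp1 is chr14:84604373-84604672 on the plus strand and that of Hspa5 chr3:38452766-38453065 on the plus strand, both on GRCr8 from RefSeq.
Xbp1 promoter: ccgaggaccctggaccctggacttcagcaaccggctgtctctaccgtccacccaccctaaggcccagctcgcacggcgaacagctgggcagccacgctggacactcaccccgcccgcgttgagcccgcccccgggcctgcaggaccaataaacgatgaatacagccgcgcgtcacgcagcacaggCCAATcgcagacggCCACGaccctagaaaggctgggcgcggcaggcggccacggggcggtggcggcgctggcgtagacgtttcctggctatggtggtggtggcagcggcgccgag
Hspa5 promoter: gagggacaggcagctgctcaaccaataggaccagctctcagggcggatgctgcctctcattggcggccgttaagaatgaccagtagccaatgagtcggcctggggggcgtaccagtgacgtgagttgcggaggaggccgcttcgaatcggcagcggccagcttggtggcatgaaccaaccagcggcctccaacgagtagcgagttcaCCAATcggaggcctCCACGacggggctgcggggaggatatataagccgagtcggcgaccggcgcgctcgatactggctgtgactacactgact

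Of the 10 measured genes with an ERSE or ERSE-II in the window 1 rose, Xbp1, and their median difference was 0.13. The others ran from -0.10 for Creld2 to 0.22 for Dnajb11. Of the 13 measured genes whose windows held neither, 5 rose, Dnajb9, Selenos, Ssr1, Eif2ak3 and Sil1, and their median was 0.32. Of the 7 measured genes without a given window 2 rose, Derl1 and Manf, with a median of 0.13. Over all genes 3.32% rose, and 1 call among 10 genes is too few to tell that set from this share or from the others. The ranges overlapped, since the genes without a match ran from -0.18 to 0.82, and the difference between these sets was not tested. A match is a description of letters, and its absence says only that these letters are not in this window.

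**Figure D3:**
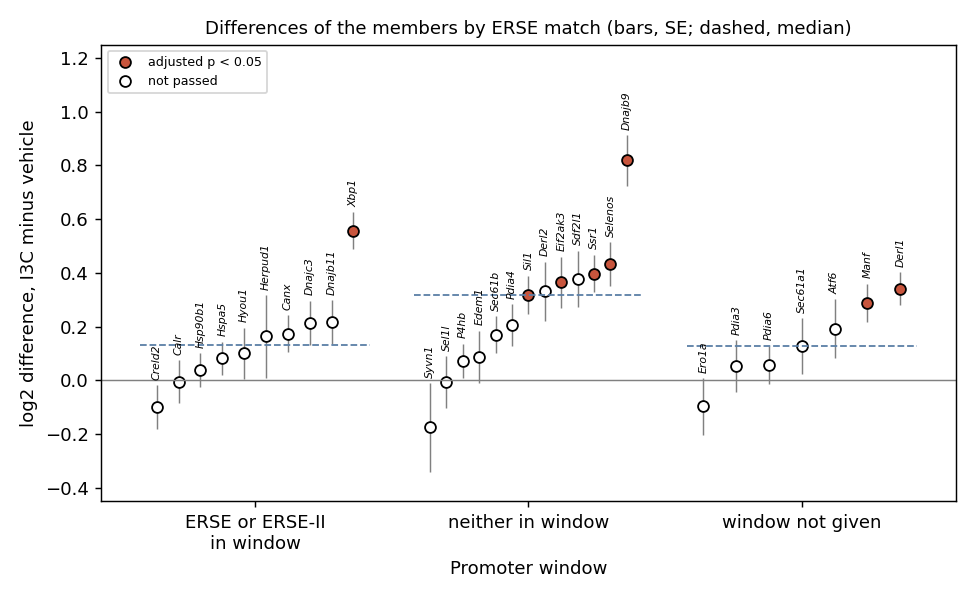
Log2 difference, I3C minus vehicle (y axis), of the 30 measured genes by what their promoter window holds (x axis). Points are genes with SE bars, filled where the gene passed, and dashed lines are medians. Xbp1 is the filled point among the 10 genes with an ERSE or ERSE-II, and 5 of the 13 points with neither element are filled.

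Of the 7 co-chaperones and small luminal factors 3 rose. Dnajb9 encodes ERdj4, a J-domain co-chaperone of BiP that is known as a target of XBP1. Its vehicle arrays read 9.81, 9.93, 9.84, 9.98 and 9.81, and its I3C arrays 10.36, 10.81, 10.61, 10.78 and 10.89. I3C 1 was the lowest of the dosed arrays and still lay above every vehicle array. The means were 9.87 ± 0.08 (SD, n = 5) and 10.69 ± 0.21 (SD, n = 5), and the difference of 0.82 ± 0.09 (SE, limma adjusted p = 0.000327) was 1.76-fold. Dnajb9 was the only gene of the 30 called under all 21 alternatives tried, with differences from 0.77 to 0.90.

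Sil1 encodes a nucleotide exchange factor of BiP. In the vehicle group it read 8.62, 8.58, 8.63, 8.57 and 8.31, and its I3C arrays 8.91, 8.86, 8.85, 8.80 and 8.86. The dosed arrays lay within a narrow band above every vehicle array, and vehicle 5 lay well below the other vehicle arrays. The difference was 0.32 ± 0.07 (SE, limma adjusted p = 0.0212), 1.247-fold. The call ended without I3C 1, I3C 2 or I3C 5, at differences of 0.30, 0.32 and 0.32 and limma adjusted p of 0.0543, 0.0538 and 0.0524. With the GAPDH difference as a covariate Sil1 differed by 0.14 ± 0.10 (SE, limma adjusted p = 0.523).

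Manf encodes a small luminal protein that binds BiP and is also secreted. Vehicle arrays gave 11.99, 11.81, 11.77, 11.78 and 11.89, and its I3C arrays 12.02, 12.15, 12.07, 12.12 and 12.30. The groups did not overlap, though vehicle 1 and I3C 1 nearly met. The difference was 0.29 ± 0.07 (SE, limma adjusted p = 0.036), 1.22-fold. The call ended without vehicle 2, vehicle 3, vehicle 4, I3C 2, I3C 3, I3C 4 or I3C 5, with differences from 0.25 to 0.30 and limma adjusted p from 0.0568 to 0.0927. It also ended with the GAPDH covariate (0.33, limma adjusted p = 0.232), with the beta-actin covariate (0.25, limma adjusted p = 0.221) and without moderation (limma adjusted p = 0.0572).

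Sdf2l1, a partner of ERdj3 that keeps clients from aggregating, fell just short of a call at 0.38 ± 0.11 (SE, limma adjusted p = 0.064). Without vehicle 5 it was called at 0.43 (limma adjusted p = 0.0306). Dnajb11, which encodes ERdj3, differed by 0.22 ± 0.08 (SE, limma adjusted p = 0.181). Dnajc3, which encodes the PERK inhibitor p58IPK and also acts as a co-chaperone, differed by 0.21 ± 0.08 (SE, limma adjusted p = 0.192). Dnajc3 was called with the beta-actin difference as a covariate, at 0.37 ± 0.08 (SE, limma adjusted p = 0.0382). Creld2, a luminal protein with isomerase activity, differed by -0.10 ± 0.08 (SE, limma adjusted p = 0.646), and by 0.10 with the GAPDH difference as a covariate.

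Of the 5 disulfide isomerases and oxidases 0 passed. Pdia4 (ERp72) came nearest at 0.21 ± 0.08 (SE, limma adjusted p = 0.182), with its interval from 1.03-fold to 1.29-fold. P4hb, the founding protein disulfide isomerase, differed by 0.07 ± 0.06 (SE), with an interval from 0.95-fold to 1.16-fold. Pdia3 (ERp57), the isomerase that works with calnexin and calreticulin, differed by 0.05 ± 0.10 (SE), and Pdia6 by 0.06 ± 0.07 (SE). Ero1a, the oxidase that recharges the isomerases, differed by -0.10 ± 0.11 (SE). The median over these 5 genes was 0.06, and over the 5 chaperones 0.08.

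Of the 7 measured degradation factors 2 rose. Selenos encodes a selenoprotein of the ER membrane that recruits the ATPase p97 (VCP) to the degradation channel. The 5 vehicle values were 9.98, 10.01, 9.89, 9.997 and 9.70, and its I3C arrays 10.40, 10.49, 10.32, 10.16 and 10.38. The groups did not overlap, and vehicle 5 and I3C 4 were the lowest of their groups. The difference was 0.43 ± 0.08 (SE, limma adjusted p = 0.00815), 1.35-fold. Under the GAPDH covariate Selenos differed by 0.31 ± 0.13 (SE, limma adjusted p = 0.287).

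Derl1 encodes derlin-1, a membrane protein through which misfolded proteins leave the ER. On vehicle arrays the level was 10.62, 10.77, 10.71, 10.78 and 10.67, and its I3C arrays 11.02, 11.11, 10.95, 11.09 and 11.08. The groups were narrow and apart. The difference was 0.34 ± 0.06 (SE, limma adjusted p = 0.00543), 1.27-fold. The other probe sets of Derl1 differed by 0.09 ± 0.08 and 0.23 ± 0.09 (SE) and did not pass. The mean of its 3 probe sets gave 0.22 (limma adjusted p = 0.0527, here adjusted over 14217 genes). With the GAPDH difference as a covariate Derl1 lay at 0.31 ± 0.10 (SE, limma adjusted p = 0.178).

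Derl2, a close relative of Derl1, differed by 0.33 ± 0.11 (SE, limma adjusted p = 0.129) and was called without vehicle 4, at 0.41 (limma adjusted p = 0.0423). The lectin-like Edem1, which hands misfolded glycoproteins to the channel, differed by 0.09 ± 0.10 (SE). It differed by -0.18 with the GAPDH difference as a covariate and by 0.07 with the beta-actin difference. The further probe sets of Edem1 differed by 0.12 ± 0.12 and 0.25 ± 0.09 (SE), and neither passed. Sel1l, the adaptor of the ubiquitin ligase, differed by -0.0064 ± 0.10 (SE).

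Syvn1 and Herpud1 varied more among vehicle arrays than any other gene of the 30. Syvn1 encodes HRD1, the ubiquitin ligase of the channel. Its vehicle arrays read 9.02, 9.06, 8.95, 9.05 and 9.89, the last being vehicle 5, and its I3C arrays ran from 8.75 (I3C 1) to 9.26 (I3C 5). The difference of -0.18 ± 0.17 (SE) did not pass, and its interval, from 0.69-fold to 1.14-fold, was the widest of the 30 on the log2 scale. Under the GAPDH covariate it lay at 0.44 ± 0.17 (SE, limma adjusted p = 0.266). Herpud1, a membrane scaffold of the ligase and a strong responder to ER stress, read 10.32, 10.84, 11.34, 11.06 and 11.10 in vehicle arrays. It read 11.01, 10.91, 11.19, 11.19 and 11.17 in I3C arrays. The vehicle arrays spanned the I3C arrays, and the difference of 0.16 ± 0.15 (SE) did not pass (limma adjusted p = 0.71).

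Of the 3 translocation genes 1 rose. Ssr1 encodes the alpha subunit of the TRAP complex, which sits beside the SEC61 channel. In the vehicle group it read 10.53, 10.34, 10.42, 10.42 and 10.19, and its I3C arrays 10.76, 10.75, 10.82, 10.72 and 10.84. All dosed arrays lay above all vehicle arrays, and the dosed arrays were closer together. The difference was 0.40 ± 0.07 (SE, limma adjusted p = 0.00551), 1.32-fold. The further probe set of Ssr1 was also called, at 0.58 ± 0.07 (SE, limma adjusted p = 0.000459). With the GAPDH difference as a covariate the brighter probe set of Ssr1 differed by 0.28 ± 0.11 (SE, limma adjusted p = 0.265).

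Sec61b, the beta subunit of the channel, differed by 0.17 ± 0.07 (SE, limma adjusted p = 0.221). Sec61a1, the pore subunit, differed by 0.13 ± 0.10 (SE, limma adjusted p = 0.647). Vehicle arrays gave 11.39, 11.30, 11.39, 11.42 and 11.89, vehicle 5 again standing above the others, and its I3C arrays 11.73, 11.64, 11.55, 11.47 and 11.63. Sec61a1 was called with the GAPDH difference as a covariate, at 0.51 ± 0.10 (SE, limma adjusted p = 0.0384). Vehicle 5 had the highest GAPDH difference of all arrays, 0.65. The further probe sets of Sec61a1 disagreed in sign, at 0.31 and -0.10, and neither passed.

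Arrays of a group differed from one another across the 30 genes. I3C 5 was the highest dosed array for 16 of the 30 and I3C 4 the lowest for 11. Vehicle 5 was the lowest vehicle array for 14 and the highest for 9. The median deviation of the 30 genes from their vehicle means was between -0.06 and 0.03 on the vehicle arrays. On the I3C arrays it was 0.11, 0.17, 0.19, 0.10 and 0.28. By role, the chaperone median was 0.26 on I3C 5 and at most 0.09 on the other dosed arrays, and vehicle 5 reached 0.13. The co-chaperone median lay between 0.23 and 0.40 on dosed arrays and between -0.07 and 0.11 on vehicle arrays. The SD of a single gene within a group ran from 0.04 for Sil1 in I3C arrays to 0.39 for Syvn1 in vehicle arrays.

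**Figure D4:**
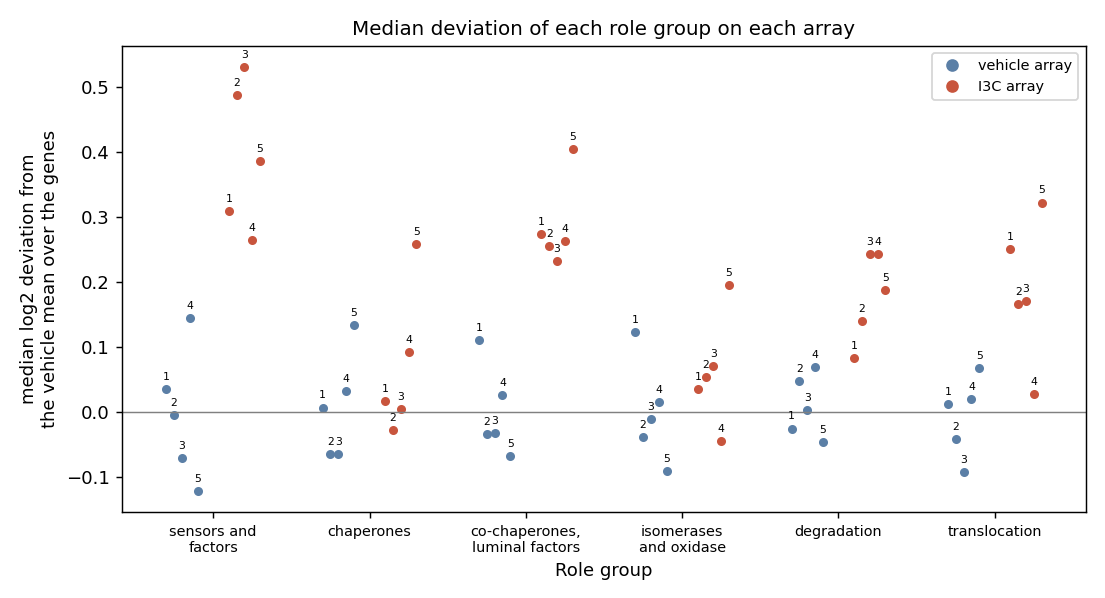
Median log2 deviation from the vehicle mean over the genes of each role group (y axis) on each array, with the replicate number beside the point. The chaperone points of the groups mix, with I3C 5 the highest at 0.26, while the sensor, co-chaperone and degradation points of the I3C arrays lie above all vehicle points.

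Other genes of the same processes were followed in 7 lists of 129 genes, of which 127 were measured, and 27 rose and 1 fell. Beside this and the counts per list below, 3.32% of all genes rose and 3.11% fell. The 30 other translocation and N-glycosylation subunits held the most, with 9 that rose, 0 that fell and 27 with a difference above 0. Their median was 0.20. Sec11c, a catalytic subunit of the signal peptidase, rose by 0.43 ± 0.08 (SE), from a mean of 9.20 to 9.63. Tmem258, a subunit of the oligosaccharyltransferase, rose by 0.38 ± 0.07 (SE), and Ssr4, the delta subunit of TRAP, by 0.34 ± 0.07 (SE). Spcs3, a further signal peptidase subunit, rose by 0.34 ± 0.07 (SE). The limma adjusted p was highest for Tmem258, at 0.0116, among these 4.

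Of 14 genes of glycoprotein quality control 2 rose and 0 fell. The differences were mixed, 8 above 0 and 6 below, with a median of 0.07. At an unadjusted p under 0.05, 5 lay higher and 3 lower. All I3C arrays lay above all vehicle arrays for 3 genes and below them for 1. Uggt1, the glucosyltransferase that marks unfolded glycoproteins for another round with calnexin, rose by 0.77 ± 0.09 (SE, limma adjusted p = 0.000499), from 7.69 to 8.47. Mcfd2, a cargo receptor subunit that carries clotting factors out of the ER, rose by 0.26 ± 0.07 (SE, limma adjusted p = 0.0396). Its call ended without vehicle 1, vehicle 2, vehicle 3, vehicle 4, I3C 1, I3C 2, I3C 3 or I3C 5 (limma adjusted p from 0.0653 to 0.104). Of 9 other measured chaperones 2 rose: Mlec, the lectin malectin, by 0.65 ± 0.08 (SE) and Hspa13, an HSP70 relative, by 0.49 ± 0.08 (SE). The median of these 9 was 0.0058, with 5 differences above 0 and 4 below. At an unadjusted p under 0.05, 2 lay higher and 2 lower.

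Of 23 other degradation factors 4 rose and 0 fell. Fam8a1, a cofactor of HRD1, rose by 0.58 ± 0.08 (SE) and Ubxn4, which binds p97, by 0.41 ± 0.07 (SE). Ube2j1, a ubiquitin-conjugating enzyme of the ER, rose by 0.30 ± 0.06 (SE), and Ufd1, a cofactor of p97, by 0.28 ± 0.06 (SE). The call of Ube2j1 ended without I3C 5 (limma adjusted p = 0.0501), and that of Ufd1 without vehicle 1, vehicle 4, I3C 4 or I3C 5 (limma adjusted p from 0.0614 to 0.0673). Of 23 other foldases 2 rose, Fkbp11, a prolyl isomerase (0.59 ± 0.11, SE), and Erp29 (0.29 ± 0.06, SE). Qsox1, a sulfhydryl oxidase, fell by 0.43 ± 0.11 (SE, limma adjusted p = 0.0437), the 1 fall in these lists. That call ended when any array other than vehicle 1 or vehicle 4 was left out (limma adjusted p from 0.0514 to 0.106). Of 13 factors around ATF6 only Creb3, a transcription factor cut in the Golgi like ATF6, rose (0.35 ± 0.08, SE, limma adjusted p = 0.0281). Its call ended without vehicle 4, I3C 2, I3C 3, I3C 4 or I3C 5 (limma adjusted p from 0.0523 to 0.0793).

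In the list for PERK signalling and amino acid shortage, 7 of 15 genes rose and 0 fell. Asns (3.67 ± 0.22, SE) and Trib3 (2.99 ± 0.16, SE) rose most, followed by Ddit4 (0.83 ± 0.12, SE) and Atf4 (0.75 ± 0.08, SE). Cebpb (0.69 ± 0.08, SE), Nupr1 (0.62 ± 0.12, SE) and Atf3 (0.55 ± 0.11, SE) rose as well. Ddit3, which encodes CHOP, the transcription factor tied to prolonged ER stress, differed by 0.06 ± 0.12 (SE, limma adjusted p = 0.899). Ppp1r15a, which encodes the phosphatase subunit GADD34, differed by 0.10 ± 0.09 (SE, limma adjusted p = 0.679). Sesn2 went the other way, at -0.38 ± 0.11 (SE), and fell just short of a call (limma adjusted p = 0.0621). Of the 15 differences 12 lay above 0 and 3 below. Without that list 20 of 112 genes rose and 1 fell, with a median difference of 0.09. Under the GAPDH covariate 11 of the 127 rose and 0 fell. Of the up to 4 largest changes named per list, Asns, Trib3, Atf4, Fkbp11, Mlec and Uggt1 were still called.

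**Figure D5:**
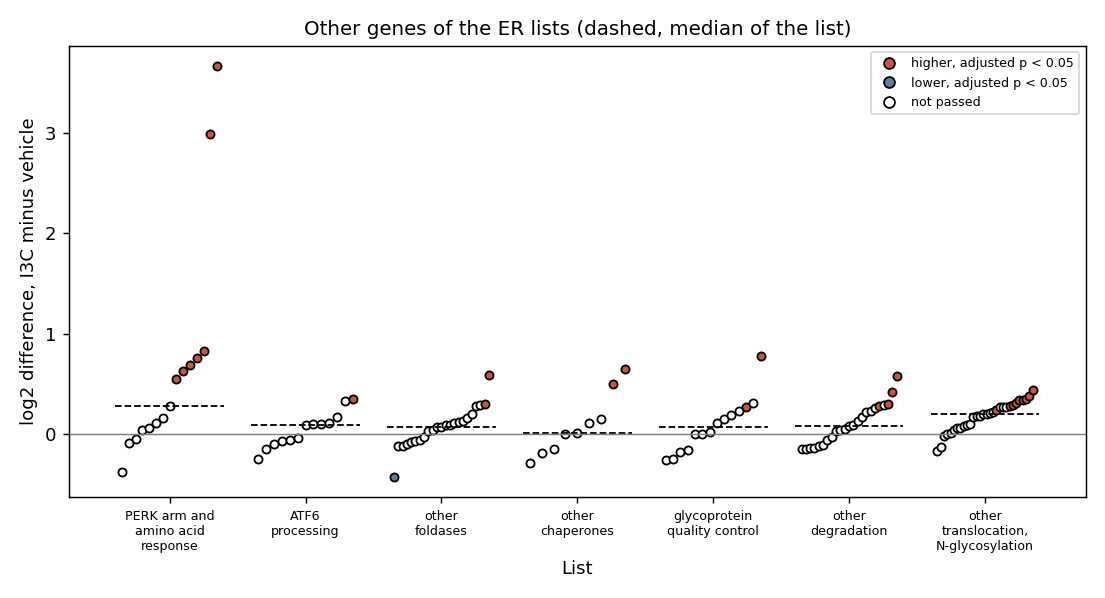
Log2 difference, I3C minus vehicle (y axis), of 127 other ER genes in 7 lists (x axis), sorted within each list, with dashed medians. Filled points passed, 27 higher and 1 lower; Asns and Trib3 stand far above the rest, and the translocation and N-glycosylation list has its median at 0.20.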

How the data were processed

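Expression was read on log2 scale from a single table deposited by the authors, who summarised probes by RMA (robust multi-array average), according to the submitters' processing notes, with no version in the sources used here. RMA draws the arrays' distributions together and compresses folds. Values ran from 3.00 to 15.1 and array medians from 6.21 to 6.29, and 5 arrays per group limit the precision. Of 31042 probe sets outside 57 controls, 20826 carry 1 gene in the platform annotation of 2016, with symbols renewed by Entrez ID from RefSeq. The comparison used limma 3.58.1 in R 4.3.3 (lmFit, eBayes without trend, prior degrees of freedom 4.60), and ± after a difference is its SE. The fit was tested on simulated data with folds of 1.5, 2 and 4, and at 1.5-fold it recovered 56 of 67 changes. Smaller folds, such as those of all risen members but Dnajb9, were not simulated. Alternatives were another variance prior, the replicate number as a block, a dim filter, renewed normalisation, centring, array weights, no moderation, a threshold of 0.01, mean probe sets, RNA quality covariates and leaving out each array.

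Genes with values on every array are those past the threshold, those without overlap, and Hspa5, Hsp90b1, Xbp1, Atf6 and Eif2ak3, with Herpud1, Syvn1 (I3C arrays by their range) and Sec61a1 added for their spread. Other lists name up to 4 risen or fallen genes by size. Cebpb, Nupr1, Atf3, Ddit3, Ppp1r15a, Sesn2 and markers named with values were added after their values were seen. Members and lists were chosen with earlier results of these data known. Protein sequences were not used here.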

Additional observations from a re-analysis of the deposited data

Results flagged for a closer look

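Single arrays stood apart from the other 4 of their group for 6 values among 64 tests of a gene or quality measure in a group of 5 (gap over range above 0.71, Dixon's test). Chance alone flags about 1 in 20 groups. Vehicle 5 accounts for 3 of the 6: Syvn1 at 9.89, where the others reached 9.06, Sec61a1 at 11.89, where they reached 11.42, and Sil1 at 8.31, where the lowest other was 8.57. I3C 1 was low for Hspa5, at 13.15 against 13.27 or more, and for Edem1, at 11.53 against 11.77 or more. Vehicle 3 was low for Sec61b, at 11.98 against 12.12 or more.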

How the results depend on the processing

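The median difference over the 30 genes lay between 0.14 and 0.20 under all alternatives that give it. The number that rose, 8, was 5 with the replicate number as a block, 5 at an adjusted p under 0.01, 2 with the GAPDH covariate, and 5 to 8 when single arrays were left out. The other settings gave 6 to 9. Of the wider lists, the 27 that rose became 13 with the block, 12 at 0.01, 11 with the GAPDH covariate, 16 with the beta-actin covariate, 39 with array weights and 37 without vehicle 5. The 1 that fell became 0 with the block, renewed quantile normalisation, no moderation, 0.01 or the GAPDH covariate, 2 with the dim filter, array weights or mean probe sets, and 0 to 1 when single arrays were left out. Over all genes 914 were called, 228 with the GAPDH covariate, 498 with the beta-actin covariate, 594 without moderation and 437 at 0.01, but 1343 with array weights, 1243 without vehicle 5, 1078 with mean probe sets and 1061 with renewed quantile normalisation. Same-numbered arrays did not deviate together (correlations -0.03, 0.22, 0.09, -0.28 and -0.01, with the own number the best partner for 2 of 5), so the numbers were not taken to pair them.

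None of the genes that changed sign had passed. Calr turned to 0.00770 with arrays centred, 0.044 with array weights and 0.12 with the GAPDH covariate, and ran from -0.070 to 0.029 without single arrays. Sel1l turned to 0.0061 with arrays centred and ran from -0.059 to 0.045 without single arrays. The GAPDH covariate turned Syvn1 to 0.44, Creld2 to 0.10 and Edem1 to -0.18. The beta-actin covariate turned Hyou1 to -0.075 and Ero1a to 0.038, and array weights turned Syvn1 to 0.0098. A stricter threshold cannot raise a count; elsewhere the cause was not tested.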

Other observations

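Further short motifs were searched in the same promoter windows, on both strands. The xenobiotic response core GCGTG stood in the windows of 16 of the 24 genes with a window, where 29.7% of all windows hold it, and 3 of the 15 measured among them rose, Sil1, Ssr1 and Xbp1. In Hsp90b1, Canx, Calr and Dnajb11 a match to this core overlaps an ERSE or ERSE-II. The count of the core is therefore not independent of those elements. Beside the counts that rose here, 3.32% of all genes did. The antioxidant response core TGACNNNGC stood in 3, those of Eif2ak3, Sdf2l1 and Ssr1, where 12.1% of all windows hold it, and Eif2ak3 and Ssr1 rose. The amino acid response core TGATGCAA stood in 1, that of Herpud1 (0.795% of all windows), and UPRE in 1, that of Hyou1 (0.595%). These are counts of letters, and neither binding nor any difference between the sets was tested.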
